A study of Mus musculus with 6 samples.

Results

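The genes described here are 10 genes of lipid uptake, storage and efflux that are often read in macrophages: Apoe, Apoc1, Apoc2, Abca1, Abcg1, Lpl, Plin2, Fabp4, Fabp5 and Cd36. They were taken by name from a table of 26754 genes, and all 10 were found. The study sequenced poly-A RNA of cells selected with CD8a magnetic beads from B16 melanomas, a transplantable mouse tumour line, grown under the skin of female C57BL/6J mice aged 6 to 8 weeks. Tumours were taken on day 7 (3 libraries) or day 14 (3 libraries) after implantation. All mice carried the same tumour and the labels name no other treatment or allele, so the only comparison is day 14 against day 7. The labels do not say whether the replicates of a day come from separate animals or how many tumours went into a library, so p-values measure the spread between these libraries, which may be technical.

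Macrophages take up lipoproteins and fatty acids through scavenger receptors such as Cd36 and through lipoprotein lipase, store the surplus as cholesteryl ester and triglyceride in droplets coated by perilipins, and return cholesterol to lipoproteins through the transporters Abca1 and Abcg1 and through secreted apolipoprotein E. The nuclear receptors LXR and PPAR, paired with a retinoid X receptor, are known to switch on many of these genes when sterols or fatty acids accumulate. Tumour-associated macrophages rich in such transcripts are called lipid-associated. None of the 10 genes is restricted to macrophages, and fatty acid-binding protein 5, Plin2 and Apoe are expressed by many cell types.

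The libraries did not hold T cells alone. Values are RPKM, reads per kilobase of gene per 1000000 reads assigned to genes, so they can be set side by side between genes. Libraries held 6523019 to 9313078 reads in genes on day 7 and 11385106 to 13316522 on day 14, and 13133 to 13806 against 18318 to 19053 genes had a read. Most low read numbers were even, so a pair of reads usually stands for 1 fragment, and a count of reads overstates the fragments behind it. Between the first 2 libraries of day 7 the reads of a gene varied little more than sampling allows (median chi-square ratio 1.11, where 1 is sampling alone), whereas each differed from replicate 3 by a ratio of 40.9 or 44.4, and the day 14 libraries differed from each other by 4.05 to 4.43. These 2 libraries were therefore averaged and counted as 1 sample, which leaves n = 2 on day 7 and n = 3 on day 14, and calls that turn on day 7 replicate 3 are given with and without it.

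Markers of several cell types differed between the days. The summed RPKM of 12 macrophage markers was 206, 194 and 140 on day 7 and 303, 314 and 302 on day 14. Of 9 tested macrophage markers 3 rose and none fell. Those that rose were the complement genes C1qb (22.8 to 56.2 RPKM) and C1qa (16.1 to 51.0, tested only through its day 14 level) and the mannose receptor Mrc1 (11.5 to 37.4). Mrc1 was at 19.0, 17.7 and 4.67 RPKM on day 7. In the fit without a filter Mrc1 was not called (limma adjusted p = 0.108), and C1qb and C1qa were. The list did not move as one: 6 of the 9 had a log2 change above 0, while the Fc receptor Fcgr1 was lower in all 3 day 14 libraries (mean 25.1 and 16.6 RPKM) and Adgre1, which encodes F4/80, was at 23.9 and 19.6 and C1qc at 18.7 and 17.0, all without a call. The 12 T cell markers summed to between 520 and 538 RPKM on day 7 and between 138 and 146 on day 14, and 6 of 11 tested genes fell and none rose, although Cd3d and Trac passed the filter only through day 7. The 10 melanoma cell markers summed to between 5720 and 5950 RPKM on day 7 and between 10500 and 11500 on day 14. Most of that sum was Dct, a pigment enzyme. Of 9 tested melanoma markers 3 rose and none fell. This list did not move as one either, and 7 of the 9 had a log2 change above 0. Mitf was at a mean of 86.7 and 78.8 RPKM and Oca2 at 9.33 and 5.48, both without a call. In bulk RNA, fewer cells of a type and less RNA per cell cannot be told apart, and the 10 genes cannot be assigned to macrophages in these libraries.

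**Figure D1:**
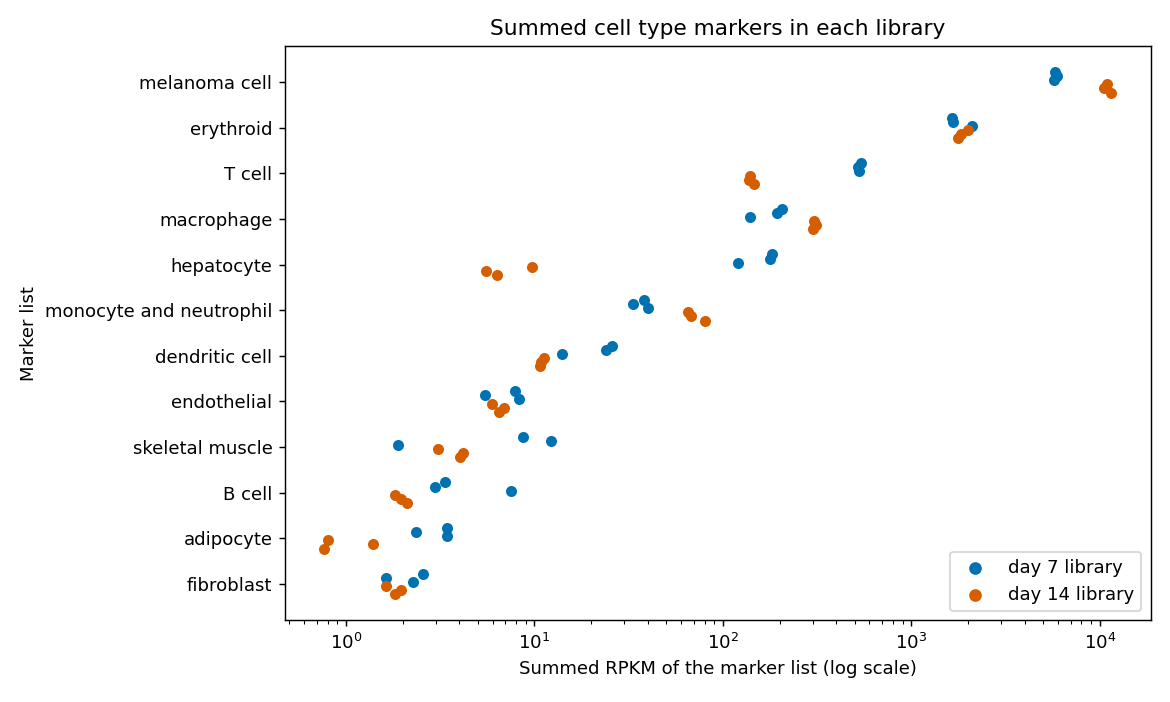
Summed RPKM of each cell type marker list (horizontal log axis) in the 3 day 7 and 3 day 14 libraries, 1 point per library. Melanoma and macrophage sums lie higher in every day 14 library, and T cell and hepatocyte sums lie lower. The keratinocyte list is not drawn because 5 of the 6 libraries sum to 0.

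Upstream sequence is shown for the 2 genes that rose and for Cd36, because LXR and PPAR partners bind direct repeats of the half-site AGGTCA and these genes are textbook targets. The 250 bases before the start come from a table of RefSeq promoters on GRCm38.p6, in which 5 of the 10 genes were matched (Abca1, Plin2, Cd36, Apoc2 and Apoe). Capitals mark a repeat of AGGTCA spaced by 4 bases (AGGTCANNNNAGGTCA, up to 3 mismatches, called DR4) or by 1 base (AGGTCANAGGTCA, up to 2 mismatches, DR1), the letters CACGTG, or a TATAAA box, searched on both strands. These motifs do not overlap in the windows shown. The mismatch limits were chosen after the windows were seen.
Abca1, chr4:53159896-53160145, minus strand: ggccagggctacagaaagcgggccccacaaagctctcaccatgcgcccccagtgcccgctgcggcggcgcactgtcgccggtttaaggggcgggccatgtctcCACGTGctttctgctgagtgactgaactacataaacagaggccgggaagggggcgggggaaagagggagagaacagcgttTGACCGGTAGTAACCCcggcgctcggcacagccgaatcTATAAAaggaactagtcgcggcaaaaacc
Apoe, chr7:19699189-19699438, minus strand: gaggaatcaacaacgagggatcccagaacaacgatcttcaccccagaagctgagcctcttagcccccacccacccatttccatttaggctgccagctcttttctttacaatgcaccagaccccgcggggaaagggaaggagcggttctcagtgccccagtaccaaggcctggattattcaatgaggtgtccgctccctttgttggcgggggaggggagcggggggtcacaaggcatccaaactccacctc
Cd36, chr5:17835897-17836146, minus strand: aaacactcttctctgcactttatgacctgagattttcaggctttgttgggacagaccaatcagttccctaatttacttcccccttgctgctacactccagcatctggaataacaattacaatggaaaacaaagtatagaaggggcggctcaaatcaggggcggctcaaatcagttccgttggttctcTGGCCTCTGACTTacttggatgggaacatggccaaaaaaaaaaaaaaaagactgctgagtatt

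The Abca1 window holds the DR4 match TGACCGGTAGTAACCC with 3 mismatches on the opposite strand, 67 to 52 bases before the start, followed by TATAAA. Of 32851 promoter windows of the same length, 18.5% hold a DR4 match, 3.24% a DR1 match, 6.02% CACGTG and 12.4% TATAAA. The Cd36 window holds the DR1 match TGGCCTCTGACTT with 2 mismatches, and its start lies 52905 bases inside the gene span used for counting, so it is the start of a shorter transcript. Plin2 has a DR1 match with 2 mismatches (GGACCCCTGACCT, 225 to 213 bases before the start) and Apoc2 one with 1 mismatch (AGGCCAGAGGTCA, 122 to 110 bases before the start). The Apoe window shown, which ends at the 5′ end of the counted gene, has none of these letters. A match describes the sequence only, and binding was not measured.

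The 10 genes summed to 777, 744 and 781 RPKM on day 7 and to 1060, 1050 and 1080 on day 14, and took 0.205% to 0.218% of all reads in genes on day 7 and 0.291% to 0.294% on day 14. Apoe and Fabp5 made up 90.2% to 93.8% of the sum in every library. The other 8 genes lay at or below 52.4 RPKM in all 6 libraries. Under a filter of a mean of 20 CPM (reads per 1000000), 6 of the 10 genes were tested, and Apoc1, Apoc2, Abcg1 and Fabp4 were not. With limma over 6691 genes and an adjusted p under 0.05 (Benjamini-Hochberg), Apoe and Abca1 rose and none of the 6 fell. Of all tested genes 1.76% were called higher and 3.15% lower. Abca1 and Cd36 passed the filter only through the day 14 libraries, so the count of 2 called genes is no support for a shift of the set. Over 3 against 3 libraries without overlap, 6 of the 10 genes were higher on day 14 and 1 was lower, beside 27.0% and 8.59% of the 22716 genes with a read.

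**Figure D2:**
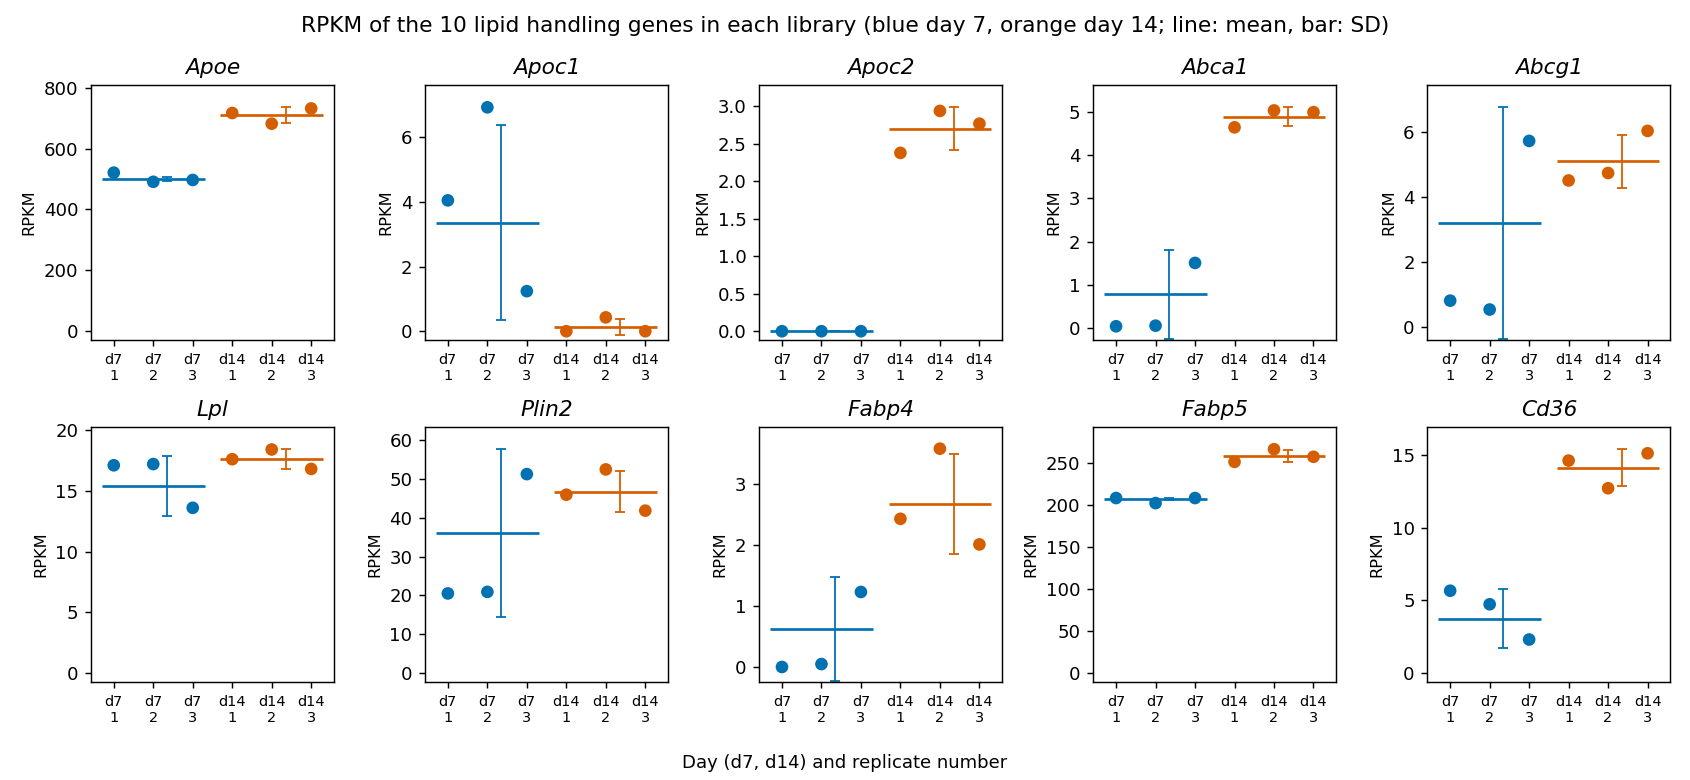
RPKM (vertical axis, separate linear scale for each gene) of the 10 genes in each library (horizontal axis: day and replicate). Lines are means and bars SD, with day 7 replicates 1 and 2 averaged as 1 sample (n = 2 and n = 3). Apoe, Apoc2, Abca1, Fabp4, Fabp5 and Cd36 lie higher in every day 14 library, and Apoc1 lies lower. Day 7 replicate 3 lies apart from the other 2 day 7 libraries in Abca1, Abcg1, Plin2 and Fabp4.

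Among the apolipoproteins, Apoe rose and its neighbours went different ways. Apoe (chromosome 7, 19696109 to 19699188, minus strand), the main apolipoprotein that macrophages secrete, was at 521, 491 and 497 RPKM on day 7 and at 717, 682 and 732 on day 14. It ranked 91 or 92 among all genes on day 7 and between 60 and 64 on day 14. Its mean went from 501 ± 6.42 (SD, n = 2) to 710 ± 25.7 RPKM (n = 3), 1.42-fold, and every day 14 library lay above every day 7 library. On the log2(RPKM + 1) scale the change was 0.50 (SE 0.11, limma adjusted p = 0.0224, 95% interval 0.27 to 0.74), where the median of all tested genes was 0.16. The call was lost under median-of-ratios scaling (0.31, adjusted p = 0.148) and without day 14 replicate 1 (0.49, adjusted p = 0.055) or day 7 replicate 3 (0.49). Against day 7 replicate 3 alone, without replicates 1 and 2, the change was 0.51. Scaled to macrophage or melanoma markers it turned below 0 (-0.37 and -0.42). Of 19 alternatives 13 called Apoe higher and 1 lower, with adjusted p from 1.49e-08 to 0.37.

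Apoc1 and Apoc2 lie just beside Apoe in the same cluster and encode small proteins that adjust lipoprotein lipase and lipoprotein uptake. Apoc1 (chromosome 7, 19689481 to 19692660) was at 4.05, 6.93 and 1.24 RPKM on day 7, from 24, 48 and 6 reads, and at 0, 0.428 and 0 on day 14, from 0, 4 and 0 reads. All 3 day 14 libraries were below all 3 day 7 libraries, but in the fit without a filter the change of -1.76 (SE 0.90, limma adjusted p = 0.338) did not pass, and 1.31% of 22716 genes were called lower there. Hepatocyte markers moved with it: their sum was 182, 178 and 121 RPKM on day 7 and 9.70, 5.52 and 6.35 on day 14. Albumin (Alb) fell from 48.5 to 2.80 RPKM and Apoa1, the chief protein of high-density lipoprotein, from 58.9 to 0.606 (log2 fold change -5.24, limma adjusted p = 7.08e-06). Both averaged under 20 CPM on day 14 (6.56 and 0.749) and passed the filter only through day 7, so a fall was built into their being tested. The part of hepatocyte RNA in the Apoc1 values was not tested.

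Apoc2 (chromosome 7, 19671579 to 19677941), the activator of lipoprotein lipase, was listed at 0 in all day 7 libraries and at 2.38, 2.94 and 2.77 RPKM on day 14. The day 14 values rest on 22, 30 and 30 reads. In the fit without a filter, in which 5.08% of 22716 genes were called higher, the change was 1.88 (SE 0.15, limma adjusted p = 0.000489). Its value is uncertain, since the gene model Gm44805 on the same strand shares 646 of its 813 exon bases and carries the same 22, 30 and 30 reads. Of the other apolipoproteins only Apoa1 could be tested. Clu, an extracellular chaperone apolipoprotein, was listed at 0 in all day 7 libraries and at 2.71 to 5.46 RPKM on day 14, and Apoa2 was at 2.28 to 12.2 and 0.297 to 3.60 RPKM.

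Among the cholesterol exporters, Abca1 rose and Abcg1 did not separate the days. Abca1 (chromosome 4, 53030787 to 53159895, minus strand), which passes cholesterol to lipid-poor apolipoproteins, was at 0.0484, 0.0622 and 1.51 RPKM on day 7 (4, 6 and 102 reads) and at 4.64, 5.03 and 4.99 on day 14 (547, 655 and 689 reads). All day 14 libraries were higher, and day 7 replicate 3 stood above the other 2 of its day. The mean went from 0.782 ± 1.03 to 4.89 ± 0.218 RPKM, 6.25-fold, with a log2 change of 1.85 (SE 0.41, limma adjusted p = 0.0275, interval 0.94 to 2.77). The Abca1 window above holds a DR4 match with 3 mismatches. Such a match was found in 18.5% of all promoter windows, and binding was not measured. Without day 7 replicate 3 the change was 2.48, and against that library alone, without day 7 replicates 1 and 2, it was 1.23 and was not called (adjusted p = 0.572). The call was also lost with a pseudocount of 0.1 (adjusted p = 0.157), in limma-voom on recovered reads (0.0893), with a loess of degree 1 behind the weights (0.0512) and without day 14 replicate 2 (0.0523). Over 19 alternatives the change stayed above 0, from 1.23 to 4.35, 12 called it, and the adjusted p ran from 1.57e-07 to 0.572.

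Abcg1 (chromosome 17, 31057698 to 31115777, plus strand), which exports cholesterol to mature high-density lipoprotein, was at 0.802, 0.528 and 5.73 RPKM on day 7 and at 4.51, 4.74 and 6.04 on day 14. Day 7 replicate 3 lay within the day 14 range, so the days overlapped. The gene missed the filter with a mean of 17.6 CPM, and without a filter the change was 0.86 (SE 0.71, limma adjusted p = 0.492). Against day 7 replicate 3 alone it was -0.15. The ratio of Abcg1 to Abca1 RPKM was 16.6, 8.50 and 3.80 on day 7, the first 2 from 4 and 6 Abca1 reads, and 0.974, 0.942 and 1.21 on day 14.

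Neither uptake gene was called. Cd36 (chromosome 5, 17781690 to 17888801, minus strand), a scavenger receptor and fatty acid translocase, was at 5.66, 4.73 and 2.31 RPKM on day 7 and at 14.6, 12.7 and 15.1 on day 14. The lowest day 14 library was above the highest day 7 library, and here day 7 replicate 3 was the lowest. The mean was 3.75 ± 2.04 on day 7 and 14.1 ± 1.28 on day 14, a ratio of 3.76, and the log2 change of 1.74 (SE 0.52, limma adjusted p = 0.0900, interval 0.59 to 2.88) did not pass. It passed without weights (adjusted p = 0.0213) and with all 6 libraries counted singly (1.59, adjusted p = 0.00927), within a range of 1.73e-05 to 0.37 over 19 alternatives.

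Lpl (chromosome 8, 68880491 to 68907448, plus strand) encodes lipoprotein lipase, which frees fatty acids from circulating triglyceride and needs the Apoc2 protein as its cofactor. It was at 17.1, 17.2 and 13.6 RPKM on day 7 and at 17.6, 18.4 and 16.8 on day 14, and the days overlapped. The change was 0.19 (SE 0.32, limma adjusted p = 0.797, interval -0.52 to 0.90). On the RPKM scale its level was above those of Cd36, Abca1 and Abcg1 in every library. Endothelial cells and adipocytes also express Cd36 or Lpl. Endothelial markers summed to 5.45 to 8.27 RPKM on day 7 and 5.97 to 6.92 on day 14, and adipocyte markers to 2.35 to 3.45 and 0.768 to 1.39, with Adipoq, the adipokine that defines adipocytes, at or near 0. Most of the day 7 adipocyte sum was Pck1, at 2.32 to 3.37 RPKM on day 7 and 0 to 0.0464 on day 14. Lipe, of the same list, overlapped between the days (mean 0.486 and 0.745 RPKM).

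In the storage and binding group, Plin2 did not separate the days and Fabp4 and Fabp5 did, without a call. Plin2 (chromosome 4, 86648386 to 86670060, minus strand), the perilipin that coats lipid droplets in most cells, was at 20.5, 20.9 and 51.2 RPKM on day 7 and at 45.9, 52.4 and 41.8 on day 14. Replicate 3 of day 7 lay inside the day 14 range and the other 2 lay below all day 14 libraries. The change was 0.50 (SE 0.36, limma adjusted p = 0.482). It was 1.13 without that replicate and -0.14 against it alone, and neither passed.

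Fabp4 (chromosome 3, 10204088 to 10208576, minus strand), a fatty acid carrier of adipocytes and macrophages, was at 0, 0.0478 and 1.23 RPKM on day 7 (0, 2 and 36 reads) and at 2.43, 3.58 and 2.01 on day 14 (124, 202 and 120 reads). Every day 14 library was higher. It missed the filter with a mean of 8.32 CPM, and without a filter the change of 1.26 (SE 0.45, limma adjusted p = 0.176) did not pass. Like Abca1, Abcg1 and Plin2, Fabp4 was highest on day 7 in replicate 3, the library with the lowest macrophage marker sum of its day (140 RPKM against 206 and 194). The macrophage markers were split in that library. C1qa (13.3, 11.6 and 19.8 RPKM on day 7) and C1qb (21.7, 18.9 and 25.4) were highest in replicate 3, and the other macrophage markers were lowest there.

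Fabp5 (chromosome 3, 10012548 to 10016607, plus strand), a fatty acid carrier of many cell types including tumour cells, was at 208, 202 and 208 RPKM on day 7 and at 251, 266 and 257 on day 14. Every day 14 library was higher, and the spread within a day was small, 207 ± 1.60 and 258 ± 7.46 RPKM. The 1.25-fold difference, 0.32 on the log2 scale (SE 0.14, limma adjusted p = 0.228, interval 0.017 to 0.62), was not called. It was called higher in 6 of 19 alternatives, among them the fit without weights (adjusted p = 0.047) and limma-voom (0.0128), and lower in 1, with adjusted p from 2.06e-07 to 0.676. The near copy Fabp5l2 held 2 reads in 1 library and 0 in the others, beside 4832 to 12189 reads for Fabp5.

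Part of each difference depends on what a library is scaled to. RPKM scale to all reads in genes, and each gene was also scaled to the summed markers of a cell type. Per summed macrophage markers Apoe was at 252%, 254% and 355% on day 7 and at 237%, 217% and 242% on day 14, so its difference turned over (log2 change -0.37, limma adjusted p = 0.37). Scaled to melanoma markers Apoe fell (-0.42, limma adjusted p = 0.0163) and so did Fabp5 (-0.59, adjusted p = 0.014). Most of that marker sum was Dct, which went from a mean of 4530 to 9110 RPKM, so this scaling mainly follows Dct. Lpl and Plin2 also turned below 0 under both scalings without passing. Abca1 stayed above 0 at 1.30 and 1.36 and Cd36 at 1.01 and 0.96 under macrophage and melanoma scaling, and neither passed. Per macrophage markers Cd36 was at 2.74%, 2.44% and 1.65% on day 7 and at 4.82%, 4.03% and 4.99% on day 14, without overlap. Scaled to T cell markers all 6 tested genes rose, with Apoe at 2.40 and Cd36 at 3.25, beside a median of 1.85 over all tested genes under that scaling. The medians under macrophage, melanoma and median-of-ratios scaling were -0.64, -0.68 and -0.015.

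**Figure D3:**
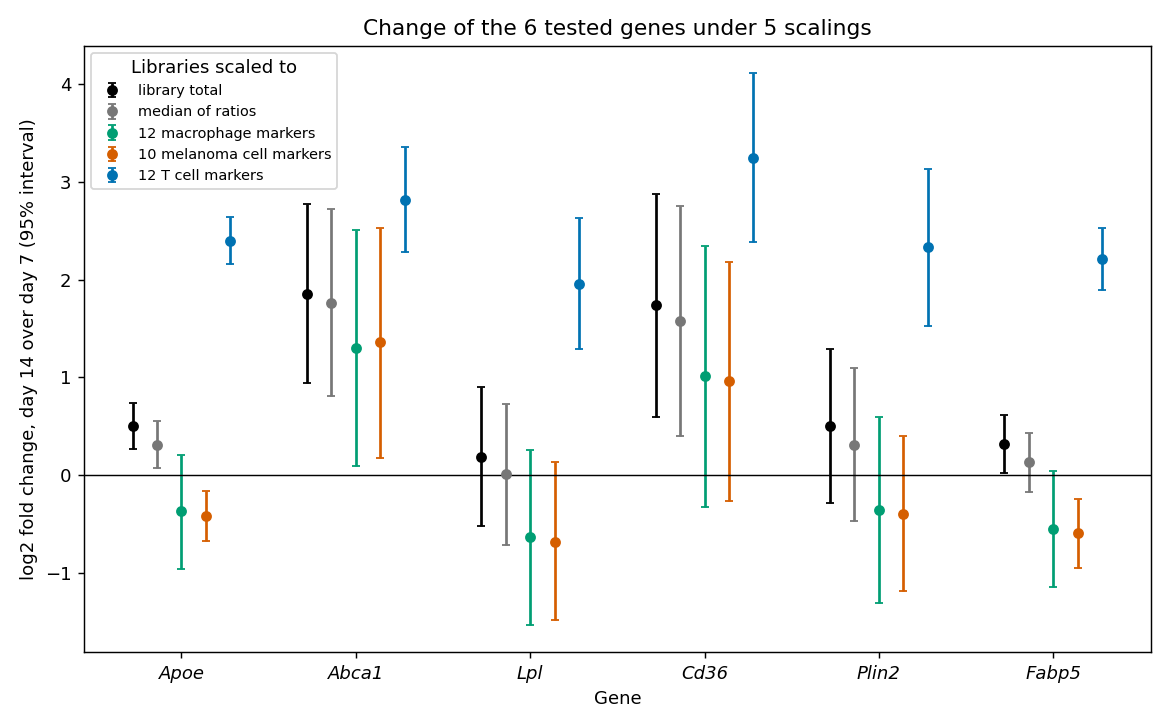
Log2 fold change of day 14 over day 7 (vertical axis, points with 95% intervals) for the 6 tested genes (horizontal axis) when libraries are scaled to their total, by median of ratios, or to summed macrophage, melanoma or T cell markers. Abca1 and Cd36 stay above 0 under all 5 scalings, and Apoe, Lpl, Plin2 and Fabp5 fall below 0 when scaled to macrophage or melanoma markers. Most of the melanoma marker sum is Dct.

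The other genes of the same pathways were counted without the 10. Of uptake receptors and lipases, 7 were tested, 1 rose and none fell. The one that rose was Marco, a macrophage scavenger receptor, which was listed at 0 in all day 7 libraries and at 36.2, 32.8 and 35 RPKM on day 14 (log2 change 5.16, SE 0.073, limma adjusted p = 6.6e-12). Msr1, the class A scavenger receptor for modified lipoproteins, was at 13.3, 14.9 and 13.7 RPKM on day 7 and at 23.0, 20.3 and 19.7 on day 14, without overlap or a call (adjusted p = 0.382). Lrp1, a receptor for Apoe-bearing remnants, was at 3.06 to 6.52 and 14.2 to 15.6 RPKM and was not called either (adjusted p = 0.098). Marco, Stab1, Lrp8 and Scarb1 averaged under 20 CPM on day 7 and passed the filter only through day 14, so no count of directions over the tested uptake genes is given.

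Genes that release cholesterol from lysosomes or pass it on gave no call. None of 4 tested lysosomal genes was called, including Npc2, a lysosomal cholesterol carrier (mean 44.6 and 36.2 RPKM), and Lipa, the acid lipase that splits cholesteryl ester (6.52 and 11.6). Scarb2, of the same list, was at a mean of 16.1 and 13.1 RPKM. None of 3 tested efflux and transfer genes was called. Stard4, a cytosolic sterol carrier, was at 0.270, 0.0769 and 6.42 RPKM on day 7 and 8.25 to 10.3 on day 14, and Pltp, which transfers phospholipid between lipoproteins, was at 1.86, 2.51 and 16.0 and 6.31 to 9.73. Stard4 was not called (log2 change 1.77, limma adjusted p = 0.176), but was called higher without day 7 replicate 3 (3.10, adjusted p = 0.000123), within a range of 9.46e-05 to 0.855 over its alternatives, and it passed the filter only through day 14. In both genes day 7 replicate 3 stood above replicates 1 and 2, the same side as in Abca1, Abcg1, Plin2 and Fabp4. The list was split in that library. Abca7, the remaining tested gene, was lowest there, at 11.6, 11.8 and 5.09 RPKM on day 7 (mean 8.37 on day 7 and 4.66 on day 14). Of the untested genes of this list, Ch25h was also lowest in replicate 3 on day 7 and Cyp27a1 highest, as given at the end.

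Of the LXR and retinoid X receptors and their targets outside the 10 genes, 7 were tested, 1 rose and none fell. Scd2, a stearoyl-CoA desaturase, rose from 46.1, 41.3 and 72 RPKM on day 7 to 133, 130 and 120 on day 14 (log2 change 1.17, SE 0.24, limma adjusted p = 0.0199). The Scd2 call was lost scaled to macrophage (0.31, adjusted p = 0.583) or melanoma markers (0.26, adjusted p = 0.498). The receptor Nr1h2 was at a mean of 14.1 and 13 RPKM and Scd1 at 8.84 and 13.7, with no call. The other receptors of this list missed the filter. Nr1h3 was at 0, 0 and 3.66 RPKM on day 7 and 2.03 to 2.86 on day 14. Rxra was at 0.781 to 1.29 and 3.07 to 4.25 RPKM, and Rxrb overlapped between the days. The median change of the 7 genes was 0.21. Among them Mylip and Srebf1 averaged under 20 CPM on day 14 (19.9 and 19.4) and passed the filter only through day 7, so this median is no support for a direction. None of 6 tested PPAR receptors, coactivators and targets was called, with a median of 0.22. Among them Acadl, an enzyme of fatty acid oxidation, was at 45.1 and 50 RPKM, and the coactivator Ppargc1a at 21.9 and 30.9. Acadm, of the same list, was lower on day 14 in the mean (17.9 and 13.8 RPKM).

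Lipid droplet genes gave 1 call. Of 7 tested coat and storage genes Plin3, a perilipin of small droplets, rose from 13.1, 13.3 and 7.38 to 35.3, 37.2 and 39.2 RPKM (log2 change 1.81, SE 0.34, limma adjusted p = 0.0114), and none fell. Acsl3, which activates fatty acids at forming droplets, was at 14.5 to 32.0 and 49.3 to 54.4 RPKM (adjusted p = 0.0592). Acsl5 and Lpin1 were lower in all day 14 libraries, without a call. Acsl5 was at 37.1 to 56.7 and 30.2 to 33.3 RPKM, and Lpin1 at 8.22 to 14.5 and 3.85 to 5.55. With Plin2 counted, 5 of 8 tested genes of this list had a log2 change above 0. The call of Plin3 was lost without day 7 replicate 3 (1.43, adjusted p = 0.126) and scaled to macrophage (0.99, adjusted p = 0.122) or melanoma markers (0.94, adjusted p = 0.0621). None of 3 tested genes of droplet breakdown was called, including Mgll, monoacylglycerol lipase (25.3 and 32.3 RPKM), and Nceh1, a cholesteryl ester hydrolase (8.77 and 15.8). Among the fatty acid-binding proteins outside the 10 none was tested, and Fabp1, the liver form, was at 13.3 to 32.7 RPKM on day 7 and 1.36 to 2.59 on day 14, on the same side as the hepatocyte markers given beside Apoc1. Fabp7 was at 0 to 0.981 and 3.18 to 6.01 RPKM, and Fabp3 at 0 to 1.22 and 0 to 0.365.

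The list of genes reported for lipid-associated macrophages, without the 10, had 2 genes that rose and 1 that fell among 10 tested. Gpnmb, a lysosomal glycoprotein of macrophages that melanoma cells also express, rose from 155, 152 and 171 to 288, 296 and 287 RPKM (log2 change 0.84, SE 0.15, limma adjusted p = 0.00808). Ctsl, a lysosomal protease, rose from 17.1, 17.2 and 39.3 to 91.8, 79.1 and 86.1 RPKM (1.68, SE 0.33, adjusted p = 0.0157). Lgals1, a galectin of many cell types, fell by 0.62 on the log2 scale (SE 0.14, limma adjusted p = 0.0257). Without day 7 replicate 3 neither Gpnmb (0.91, adjusted p = 0.0548) nor Lgals1 (-0.70, adjusted p = 0.0877) was called. Scaled to macrophage markers neither Gpnmb (-0.033, adjusted p = 0.945) nor Ctsl (0.82, adjusted p = 0.228) was called, nor were they scaled to melanoma markers (-0.077, adjusted p = 0.773, and 0.78, adjusted p = 0.0914).

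**Figure D4:**
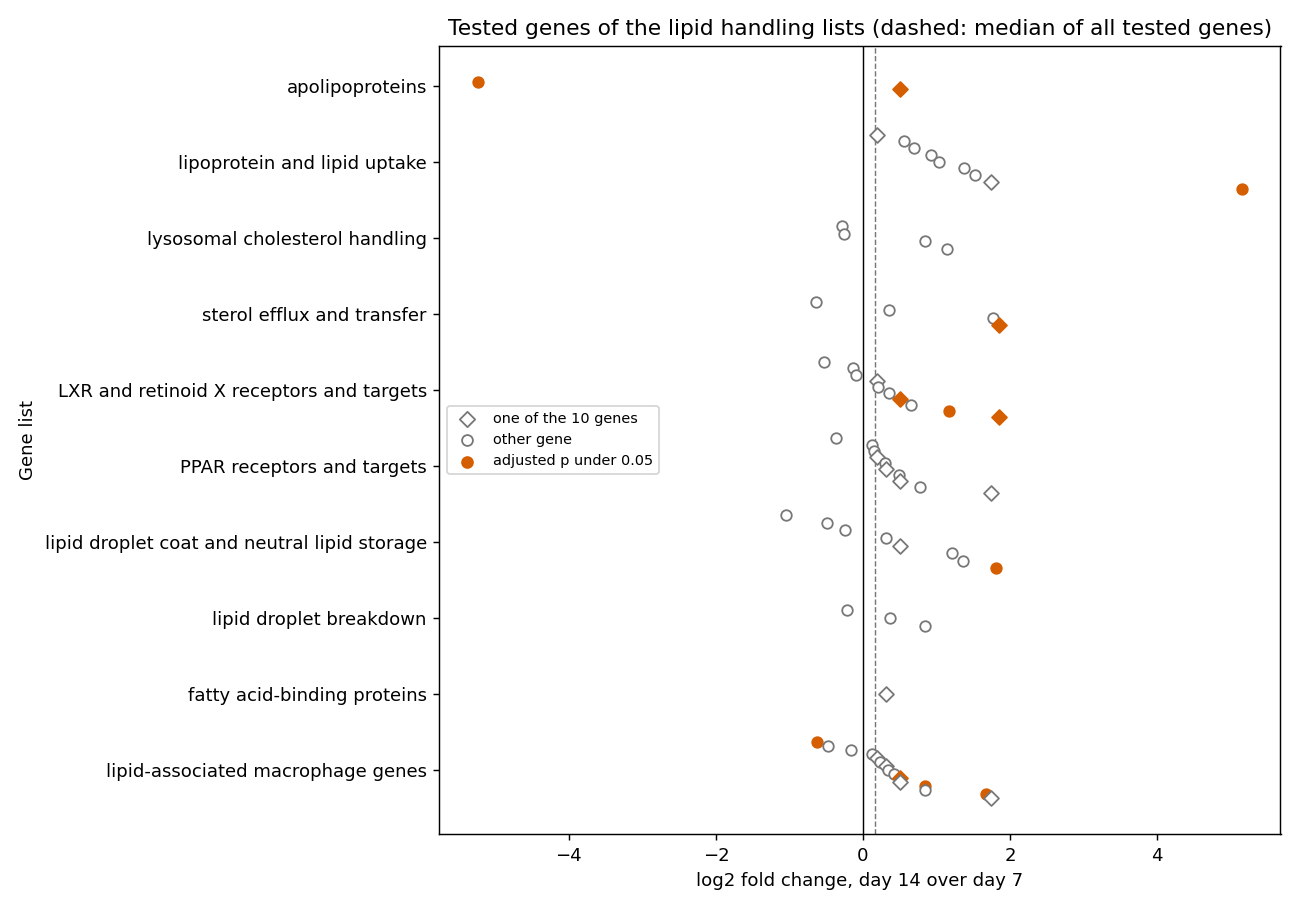
Log2 fold change of day 14 over day 7 (horizontal axis) for every tested gene of each lipid handling list (rows), with diamonds for the 10 genes and circles for other genes, filled where the limma adjusted p was under 0.05. Marco and Apoa1 lie farthest from 0, at 5.16 and -5.24, and the dashed line marks the median of all tested genes, 0.16. Vertical offsets within a row only keep points apart.

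The remaining marker lists were lower or overlapped between the days, apart from that of monocytes and neutrophils. Monocyte and neutrophil markers summed to 33.2 to 40 RPKM on day 7 and 65.5 to 80.3 on day 14, and neither of 2 tested genes was called. The day 7 sum was led by Ccr2 (17.4 to 20.3 RPKM, and 13.7 to 14.5 on day 14) and the day 14 sum by S100a9 (3.29 to 8.81 and 36.6 to 49.2). Ly6c2, like Ccr2, was lower in all day 14 libraries (mean 3.54 and 1.75). Dendritic cell markers summed to 14.0 to 25.8 RPKM on day 7 and 10.7 to 11.3 on day 14. Erythroid markers overlapped, at 1650 to 2110 and 1780 to 2010 RPKM. B cell markers were at 2.98 to 7.51 and 1.82 to 2.11 RPKM, fibroblast markers at 1.63 to 2.57 and 1.63 to 1.96, and skeletal muscle markers at 1.88 to 12.3 and 3.08 to 4.16. Keratinocyte markers reached 0.145 RPKM in 1 day 7 library and were at 0 in the others. The part of macrophage, melanoma or monocyte RNA in the values of the 10 genes was not tested.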

How the data were processed

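RNA of 6 libraries was sequenced from a stranded poly-A kit with molecular identifiers and paired reads, per the labels. The authors deposited RPKM per gene, and per the submitters' processing notes used Trimmomatic 0.36, featureCounts of Subread 1.5.1 and GRCm38. For the aligner, the strand setting and any use of the identifiers, the sources used here give nothing. Multiplying RPKM by gene length gave whole reads to within 4.1e-05 (tolerance 0.001), which gave the depth, CPM and read numbers. Low read numbers were even in 84.0% to 87.7% of genes on day 7 and in 75.6% to 77.6% on day 14.

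Day 14 was compared with day 7 in limma 3.58.1 (R 4.3.3) on log2(RPKM + 1), a scale that understates changes of low genes. Precision weights per day came from a loess of variance on mean (span 0.3, degree 2, floor 0.005), with a trended prior and Benjamini-Hochberg adjustment over the 6691 genes that averaged 20 CPM or more. Genes under the filter were read in the fit without one. The procedure was also run on simulated reads with the same noise level in all samples of a day. The outcome is not given here, so this run lends the calls no support. Intervals are 95% and cover the spread between samples. Tables were handled in Python 3.11.15 with pandas 2.3.3.

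The 10 genes, the 10 pathway lists and the 13 cell type lists were chosen with earlier results of these data known, so the lists are no independent support. Named genes are the 10, the called genes of each pathway list and the 3 highest markers of each cell type list, of which some are given only in the sums. Where fewer than 2 genes of a pathway list were called, those with the highest mean RPKM filled it up to 3. Other genes of these lists, such as Mrc1, Fcgr1, Adgre1, C1qc, Cd3d, Mitf, Oca2 and Ly6c2, were named outside this rule. Genes of these lists absent from the table were not analysed here. Alternatives changed the pseudocount, filter, weights, scaling, model and replicates, and their effect is given at the end.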

Additional observations from a re-analysis of the deposited data

How the results depend on the processing

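The count of genes called was 329 (118 higher, 211 lower). It was 1528 with a filter of 1 RPKM in 2 samples, 1450 without a filter, 1011 without weights, 1560 with 6 libraries counted singly, 1268 in limma-voom on recovered reads, 926 scaled to macrophage markers, 6321 to T cell markers and 2049 to melanoma markers, and 159 without day 7 replicates 1 and 2. Leaving out 1 library gave 222 to 338, and without day 7 replicate 3 the calls were 117 higher and 105 lower. Without day 14 replicate 1 they were 68 and 192. Median-of-ratios scaling gave 357, but 59 higher and 298 lower, and moved the median of all genes from 0.16 to -0.015. Higher and lower calls numbered 6305 and 16 scaled to T cell markers, 10 and 916 to macrophage markers, 23 and 2026 to melanoma markers, 1153 and 297 without a filter, 601 and 410 without weights, 912 and 648 counted singly, 715 and 553 in limma-voom and 1207 and 321 with the RPKM filter.

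Of the 10 genes 2 were called, both higher, and scaled to melanoma markers 2 were called, both lower (Apoe and Fabp5). The count was 1 with a pseudocount of 0.1, with median-of-ratios scaling and with a loess of degree 1, 4 without a filter, without weights and with 6 libraries counted singly, 6 scaled to T cell markers, 0 scaled to macrophage markers and 0 without day 7 replicates 1 and 2, and 1 to 2 when 1 library was left out. Replicate numbers did not pair the libraries (correlations of same-numbered deviations -0.019, -0.0128 and -0.0365). With the replicate number as a block and libraries counted singly, 1162 genes and 4 of the 10 were called.

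Directions turned over as follows. Scaled to macrophage and melanoma markers respectively, Apoe was at -0.37 and -0.42, Lpl at -0.63 and -0.68, Plin2 at -0.36 and -0.40, Fabp5 at -0.55 and -0.59, Acadl at -0.71 and -0.75, Gpnmb at -0.033 and -0.077, Mgll at -0.48 and -0.52, Msr1 at -0.27 and -0.31, Pltp at -0.42 and -0.43, Ppargc1a at -0.35 and -0.39 and Scd1 at -0.13 and -0.17. Scaled to T cell markers, Abca7 was at 0.96, Acadm at 1.42, Acsl5 at 1.36, Lgals1 at 1.28, Npc2 at 1.57, Nr1h2 at 1.65 and Scarb2 at 1.5. Acadl was at -0.038 under median-of-ratios scaling and Nr1h2 at 0.13 without day 7 replicate 3. Without day 7 replicates 1 and 2, Abcg1 was at -0.15, Plin2 at -0.14 and Pltp at -0.85. The causes were not tested. A day left with 1 sample is assumed to vary as that day did in all libraries. Low reads limit Apoc1, Apoc2, Fabp4 and the day 7 values of Abca1.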

Other observations

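Day 7 replicate 3 had few or no reads in some sterol and lipid genes that were seen in replicates 1 and 2, and reads in another that was at 0 in both. These genes were picked after their values were seen. Ch25h, which makes 25-hydroxycholesterol, was at 12.5 and 11.9 RPKM in replicates 1 and 2 (134 and 150 reads), at 0 in replicate 3 and at 0.520 to 0.826 on day 14. Lipc, hepatic lipase, was at 5.14 and 6.09 RPKM in replicates 1 and 2 and at 0 in replicate 3. Cyp27a1, the sterol 27-hydroxylase, was at 0 in replicates 1 and 2 and at 2.82 RPKM in replicate 3 (40 reads). G0s2, an inhibitor of triglyceride lipase, was at 30.3, 23.9 and 2.82 RPKM on day 7 and 16.3 to 21.2 on day 14.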
